A study of Mus musculus with 27 samples.

Results

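Imprinted genes, of which in most tissues mainly the maternal or mainly the paternal copy is transcribed, were described in mouse embryonic fibroblasts (MEFs). The set was a list of 43 gene symbols in 17 imprinted domains, and a gene was taken where its symbol stood in the row name of the gene count table. Of the 37310 genes in that table, 42 were listed genes, and 39 of those passed the filter on low counts and were tested. Kcnq1ot1, the noncoding RNA of the Kcnq1 domain, carried no row by that symbol, and Usp29, Ascl2 and Rasgrf1 were measured but too low to be tested.

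RNA-seq was performed on MEFs of both sexes that were either wild type or carried Firre KO, a deletion of the whole locus of the long noncoding RNA (lncRNA) Firre on the X chromosome. The 4 groups were female wild type, female KO, male wild type and male KO, with 3 replicates each and 12 libraries in all. Per the study's methods, MEF lines came from single mid-gestation embryos whose head, limbs and organs had been removed, and all libraries were made from total RNA with 1 kit. The labels do not tie replicates to embryos, so p-values measure the spread between these libraries, which may be technical, and sex cannot be told apart from the embryos or lines that each sex was taken from.

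Genomic imprinting marks 1 parental copy of a gene in the germ line, mostly by DNA methylation of a control region, and the mark is kept in body cells. Imprinted genes lie in clusters that often hold a noncoding RNA expressed from 1 parental chromosome and protein-coding genes expressed from the other. Many of them act on fetal growth, on the placenta or on metabolism, and fibroblasts of the embryo are a usual place to study them. The parental origin given below for each gene is textbook background for tissues in which the gene is imprinted. The counts do not separate the alleles, so allelic expression was not measured here.

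At the best-known domain, the paternal copy expresses Igf2, a fetal growth factor, and the maternal copy expresses H19, an lncRNA. CTCF, the insulator protein, binds the maternal copy of a control region upstream of H19. The core CTCF motif CCGCGNGGNGGCAG was searched on both strands within 5000 bases upstream of each gene start. Upstream of H19 (mm9, chr7:149761434-149764048, minus strand) it matched 3 times, each on the strand of H19, and the matches are shown because they mark the element that separates the pair. Of 37296 genes with a full window, 17 (0.0456%) held this exact string, and H19 was the 1 member among them. The study's methods used a CTCF weight matrix, which also accepts sites that differ from a fixed string. The share is therefore not that of genes with CTCF sites. The search was made to show sites upstream of H19, so the match there is not a test. Each match is given 5′ to 3′ on the minus strand with 8 flanking bases on either side, and the capitals mark the motif.
Site 1, chr7:149766214-149766227, 2166 bases from the H19 start: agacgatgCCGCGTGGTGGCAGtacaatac
Site 2, chr7:149766669-149766682, 2621 bases from the H19 start: ggatgctaCCGCGCGGTGGCAGcatactcc
Site 3, chr7:149767939-149767952, 3891 bases from the H19 start: gggagttgCCGCGTGGTGGCAGcaaaatcg

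Peg10, a gene derived from a retrotransposon, and Sgce, which encodes epsilon-sarcoglycan, are both paternally expressed and start on opposite strands at either end of 101 bases of mm9 (chr6:4697205-4697305). The interval is shown because its flanking genes are compared below. It has a GC content of 78.2% and 13 CpG dinucleotides, which stand in capitals on the plus strand, with an observed over expected CpG ratio of 0.953.
Peg10 and Sgce interval: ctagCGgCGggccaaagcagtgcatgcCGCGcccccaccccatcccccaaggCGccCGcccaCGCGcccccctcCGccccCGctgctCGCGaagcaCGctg

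Promoters of the members were CpG rich in general. In the windows around gene starts that RefSeq gives (GRCm38.p6), 37 members matched by symbol, Kcnq1ot1 among them. They had a median of 17 CpG and a median GC content of 58.0%. At least 10 CpG were found in 29 of these windows (78.4%), compared with 43.9% of all 27025 genes with such a window, whose median was 7.

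Several noncoding members are host transcripts of small RNAs. The miRNA genes that the mm9 annotation places inside members were matched to RefSeq by symbol. This gave 39 mature miRNAs inside 7 members, and no seed (bases 2 to 8) is shared by 2 of them. Igf2, Mest and Rtl1 among these members are protein-coding, and the miRNAs inside Rtl1 lie on the opposite strand, so Rtl1 is not their host. Those of H19, Meg3 and Mirg that lie in exons on the same strand belong to hosts that were called between the sexes below, and examples of them are shown with the seed in capitals. The mature miRNAs themselves were not measured.
miR-675-5p, in H19: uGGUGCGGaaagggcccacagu
miR-675-3p, in H19: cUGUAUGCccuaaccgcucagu
miR-770-3p, in Meg3: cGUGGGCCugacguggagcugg
miR-770-5p, in Meg3: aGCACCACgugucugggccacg
miR-377-3p, in Mirg: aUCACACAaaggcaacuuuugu
miR-410-3p, in Mirg: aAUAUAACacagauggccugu

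The libraries held 42986516 to 65454660 expected counts each. Firre, listed as 6720401G13Rik, had 90 to 129 counts in female wild-type and 239 to 307 in male wild-type libraries and 0 in all 6 KO libraries, which matched the genotype labels. Xist was at 395 to 458 CPM in female libraries and at most 0.0677 CPM in male ones, and Ddx3y, Eif2s3y, Kdm5d and Uty of the Y chromosome had at most 1 count in any female library. All 12 fibroblast markers had a mean of at least 1 CPM, with Col1a1 at 2147 to 3770 CPM and Lum as low as 0.356 CPM in a male library. Replicate 3 of both male groups stood apart from the other male replicates: over the genes tested, chi-square per degree of freedom was 38.0 to 45.3 in pairs with them and 7.57 to 16.5 in all other replicate pairs. Macrophage markers (10 in the table, 9 of them with a mean of at least 1 CPM) summed to 37.2 to 115 CPM in female and 8.63 to 15.9 CPM in male libraries. Epithelial markers summed to 74.6 to 129 CPM in female and 40.8 to 53.7 CPM in male libraries, and fibroblast markers to 16487 to 20287 and 19437 to 24572 CPM.

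MEFs transcribed most of the imprinted domains. In CPM, which here are counts scaled by effective library size, 33 of the 42 members in the table reached a mean of 1 CPM, which is 78.6% compared with 33.3% of all genes, and the same number reached 1 CPM in every library. Their levels spanned a wide range, with 13 members above 100 CPM, 13 at 10 to 100, 7 at 1 to 10 and 9 below 1 CPM. Of the 17 domains, 15 had at least 1 expressed member and 11 had every member of the table expressed. Nap1l5 and Rasgrf1, each the single member of its domain, were the exceptions, with means of 0.875 and 0.0144 CPM. By the parental copy usually expressed, 17 of 20 maternal and 16 of 22 paternal members were expressed. In cultures of mixed cells, fewer cells of a type and less RNA per cell cannot be told apart.

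**Figure D1:**
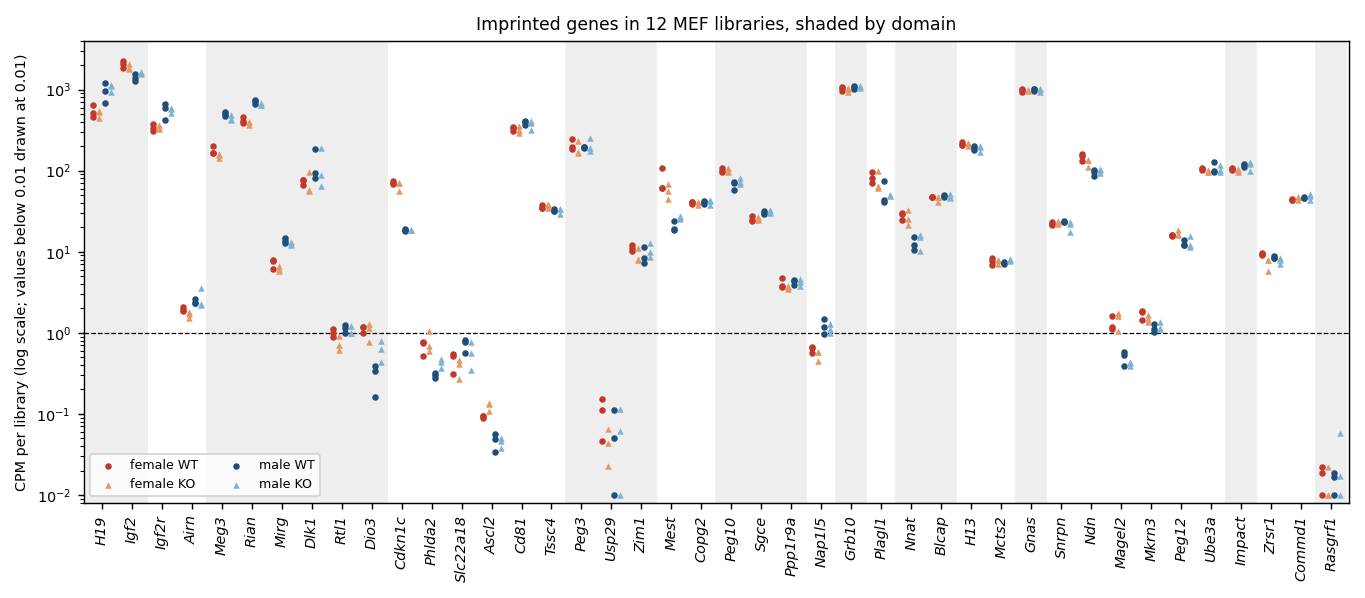
CPM on a log axis for the 42 members in the table, in the order of their domains (alternating shading), with 1 point per library and the 4 groups in colour. Igf2, Grb10 and Gnas had the highest mean CPM, which is not corrected for gene length, and the 9 members with a mean below the dashed line at 1 CPM include Ascl2, Usp29 and Rasgrf1.

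Igf2 and H19, the pair on chromosome 7, were both high. Igf2 was measured at 2218, 2093 and 1823 CPM in female wild-type, 1849, 1780.0 and 2065 in female KO, 1555, 1369.9 and 1275 in male wild-type and 1595, 1655 and 1546 in male KO MEFs. H19 was at 511, 462 and 647 CPM in female wild-type, 441, 545 and 522 in female KO, 1205, 960.3 and 675 in male wild-type and 932, 1098 and 1139.8 in male KO MEFs. Every female library was above every male library for Igf2 and below every male library for H19, while KO and wild-type libraries overlapped within each sex for both genes. Per merged exon length, H19 (mean of 910.4 TPM, the length-scaled level) and Igf2 (889 TPM) were the highest members, ahead of Cd81 (439 TPM). Between the pair the order depended on sex, with Igf2 above H19 in the female libraries (892 to 1130 TPM against 515 to 780.3) and H19 above Igf2 in the male ones (819 to 1444 TPM against 669 to 853).

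Igf2r, the maternally expressed receptor that sends IGF2 to lysosomes, was at 379, 331 and 312 CPM in female wild-type, 329, 336 and 368 in female KO, 589, 671 and 426 in male wild-type and 579, 595 and 508 in male KO MEFs. All male libraries were above all female ones, the lowest male value being that of wild-type replicate 3. Its antisense noncoding RNA Airn, from the paternal copy, was low, at 1.54 to 3.61 CPM over the 12 libraries. These counts cover 3583 annotated exon bases within chr17:12934177-13052988 (mm9), so RNA from the rest of the Airn locus was not counted. Grb10, an adaptor that restrains insulin and IGF receptor signalling, was at 1075, 1042 and 956 CPM (female wild type), 1005, 944 and 1053 (female KO), 1078, 1004 and 1094 (male wild type) and 1117, 1112 and 1041 (male KO). Neither sex nor genotype separated these values. Plagl1, the zinc finger transcription factor Zac1, lay between 41.2 and 97.7 CPM.

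In the Dlk1-Dio3 domain on chromosome 12, the 3 maternally expressed noncoding RNAs were all expressed. Meg3, an lncRNA, was at 200.2, 163 and 163 CPM in female wild-type, 159, 143 and 157 in female KO, 525, 476 and 506 in male wild-type and 482, 429.5 and 423 in male KO MEFs. Rian, a host of C/D box snoRNAs, was at 464, 408 and 382 CPM in female wild-type, 397, 369 and 395 in female KO, 734, 658 and 729.5 in male wild-type and 685, 653 and 646 in male KO MEFs, and Mirg, a host of miRNAs, at 7.95, 7.62 and 6.08 CPM in female wild-type, 6.64, 5.79 and 6.15 in female KO, 14.7, 12.8 and 13.5 in male wild-type and 12.6, 11.9 and 13.3 in male KO MEFs. For each of these genes all 6 male libraries were above all 6 female libraries, and the female KO libraries lay below all female wild-type libraries for Meg3.

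The paternally expressed genes measured in that domain were Dlk1, Rtl1 and Dio3. Dlk1, a transmembrane protein of the Delta family that holds back adipocyte differentiation, was at 76.0, 65.7 and 76.4 CPM in female wild-type, 55.8, 97.3 and 58.0 in female KO, 92.3, 80.2 and 186 in male wild-type and 87.1, 65.2 and 190.3 in male KO MEFs. The male replicate 3 libraries were the highest, at 186 and 190.3 CPM against 65.2 to 92.3 CPM in the other male libraries. Rtl1, derived from a retrotransposon, stayed at 0.622 to 1.25 CPM and shares exon bases with miRNA genes on the opposite strand. Dio3, the deiodinase that inactivates thyroid hormone, was low at 1.17, 1.17 and 0.998 CPM (female wild type), 0.770, 1.16 and 1.28 (female KO), 0.388, 0.161 and 0.337 (male wild type) and 0.440, 0.632 and 0.783 (male KO), from 10 to 58 counts per library. All female libraries except KO replicate 1, at 0.770 CPM, were above every male library, the highest of which was male KO replicate 3.

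In the Kcnq1 domain, 3 of 6 measured members were expressed. Cdkn1c, the maternally expressed CDK inhibitor p57, was at 68.5, 70.3 and 74.0 CPM in female wild-type, 69.7, 55.7 and 70.9 in female KO, 18.2, 18.4 and 19.2 in male wild-type and 18.7, 18.5 and 18.4 in male KO MEFs. The male values fell in a narrow band and all female values were well above it. Cd81, a tetraspanin, was at 343, 334 and 307 CPM in female wild-type, 319, 295 and 357 in female KO, 398, 412 and 362 in male wild-type and 409, 383 and 321 in male KO MEFs, with every wild-type male value above every wild-type female value and overlap in KO. Tssc4 was at 34.6, 37.4 and 34.2 CPM in female wild-type, 37.7, 34.3 and 38.8 in female KO, 31.4, 33.5 and 32.2 in male wild-type and 33.2, 33.4 and 29.1 in male KO MEFs, and each female library was above each male library by a small margin. Phlda2, which restrains growth of the placenta, had few counts (17 to 46 per library) and was at 0.514, 0.751 and 0.772 CPM (female wild type), 1.04, 0.600 and 0.686 (female KO), 0.304, 0.274 and 0.319 (male wild type) and 0.474, 0.370 and 0.439 (male KO). The female values of Phlda2 were all higher than the male ones. Slc22a18 (0.272 to 0.825 CPM) and Ascl2 (0.0337 to 0.136 CPM), a transcription factor of the trophoblast, were below 1 CPM in every library.

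Members of the Peg3, Mest and Peg10 domains were expressed apart from Usp29. Peg3, a large zinc finger protein, was at 196, 187 and 249 CPM in female wild-type, 232, 165 and 169 in female KO, 197, 189 and 198 in male wild-type and 191, 177 and 255 in male KO MEFs, and groups overlapped. Its neighbour Zim1 was at 7.34 to 12.8 CPM, and Usp29 at 0 to 0.151 CPM. Mest, an alpha/beta hydrolase of mesoderm, was at 60.6, 61.2 and 106 CPM in female wild-type, 68.9, 56.6 and 44.4 in female KO, 18.6, 24.2 and 19.3 in male wild-type and 25.4, 27.2 and 26.5 in male KO MEFs. Female wild-type replicate 3 was the highest, and every female library was above every male library. Mest shares 904 exon bases with Copg2 on the opposite strand, strand use is not stated, and its counts were estimates that were not whole in all 12 libraries, so reads of the pair may be split between them. Copg2, a coatomer subunit, lay between 38.0 and 43.2 CPM. Peg10 lay between 58.2 and 109 CPM, Sgce between 24.0 and 32.5 CPM and Ppp1r9a, which encodes neurabin, between 3.47 and 4.70 CPM.

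The Snrpn domain, the region of Prader-Willi and Angelman syndromes in man, had 5 of 6 members expressed. Ndn, necdin of the MAGE family, was at 133, 159.5 and 150.1 CPM in female wild-type, 133, 112 and 135 in female KO, 86.7, 103 and 96.8 in male wild-type and 106, 101 and 93.1 in male KO MEFs. Each female value was above each male value. Ube3a, a ubiquitin ligase whose paternal copy is silenced in neurons, was at 101, 105 and 107 CPM in female wild-type, 101, 95.0 and 95.7 in female KO, 99.6, 95.7 and 128 in male wild-type and 96.0, 102 and 117 in male KO MEFs. The highest values of Ube3a were again those of male replicate 3. Magel2, also of the MAGE family, was low at 1.61, 1.13 and 1.19 CPM (female wild type), 1.61, 1.74 and 1.04 (female KO), 0.574, 0.532 and 0.394 (male wild type) and 0.423, 0.386 and 0.439 (male KO), with all female values above all male ones. Snrpn itself, the spliceosomal protein SmN, was at 17.5 to 24.0 CPM, Peg12 at 11.4 to 18.7 CPM and Mkrn3 at 1.03 to 1.88 CPM.

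Of the remaining domains, Gnas, the gene of the stimulatory G protein alpha subunit, was at 992, 1006 and 931 CPM in female wild-type, 998, 960.1 and 996 in female KO, 1004, 1018 and 963 in male wild-type and 1022, 1011 and 923 in male KO MEFs. These values differed little, and Gnas overlaps genes on the opposite strand by 988 exon bases (Nespas) and 1469 exon bases (AF085738). H13, a signal peptide peptidase, was at 210.0, 226 and 209.8 CPM in female wild-type, 218, 203 and 219 in female KO, 189, 204 and 181 in male wild-type and 196, 199 and 172 in male KO MEFs. Impact, an inhibitor of the kinase GCN2, was at 108, 101 and 104 CPM in female wild-type, 102, 95.4 and 105 in female KO, 116, 119 and 111 in male wild-type and 128, 119 and 98.3 in male KO MEFs. Both genes overlapped between the sexes over the 12 libraries. Nnat, neuronatin, was at 24.5, 30.1 and 29.3 CPM in female wild-type, 32.4, 21.6 and 25.4 in female KO, 15.2, 10.6 and 12.02 in male wild-type and 15.2, 16.2 and 10.2 in male KO MEFs, with all female libraries above all male ones. Nap1l5, a relative of nucleosome assembly proteins, was at 0.561, 0.663 and 0.640 CPM (female wild type), 0.453, 0.579 and 0.575 (female KO), 0.962, 1.48 and 1.18 (male wild type) and 1.12, 1.00 and 1.28 (male KO), with the female values below the male ones. Blcap (41.2 to 52.2 CPM), Commd1 (43.3 to 51.1 CPM), Mcts2 (6.85 to 8.42 CPM) and Zrsr1 (5.85 to 9.51 CPM) completed the expressed members.

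No imprinted gene was called between Firre KO and wild-type MEFs. Calls were made with edgeR (quasi-likelihood test, Benjamini-Hochberg adjusted over 15387 genes) and needed an adjusted p below 0.01 together with a log2 fold change beyond 1 in either direction. By this rule 0 of 39 members were called in female MEFs (background 0.0065%, which is Firre alone), 0 in male MEFs (background 0.0065%), 0 in the average over the sexes (background 0.0065%) and 0 in the test of whether the sexes differed in that effect (background 0.0%). At an unadjusted p under 0.05 there were 3 members in female MEFs (7.69% of 39, compared with 7.55% of all genes) and 2 in male MEFs (5.13%, compared with 2.06%). The average had 4 such members (10.3%, compared with 6.24% of all genes) and the sex difference 3 (7.69%, compared with 3.19%). DESeq2 called 0 members in each of the 4 comparisons and had 1, 1, 3 and 2 at that unadjusted p, which is 2.56%, 2.56%, 7.69% and 5.13% of 39, compared with 6.72%, 1.76%, 5.46% and 2.88% of all genes. The log2 fold changes of the members had a median of -0.08 in female MEFs, from -0.43 (Mest) to 0.19 (Phlda2). Mest was at -0.10 without female wild-type replicate 3, and Phlda2 at -0.08 without female KO replicate 1. In male MEFs the median was -0.004, from -0.35 (Slc22a18) to 1.06 (Dio3), and Slc22a18 was at -0.10 without male KO replicate 3 and at -0.63 without male KO replicate 1.

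The members nearest to a change in female MEFs were Zrsr1, Meg3 and Ndn. Zrsr1, a retrogene in an intron of Commd1, was at 9.39, 8.99 and 9.51 CPM in wild-type and 7.81, 5.85 and 7.84 CPM in KO libraries, which did not overlap. Its log2 fold change was -0.38 (SE 0.11) with an adjusted p of 0.513 by edgeR's quasi-likelihood test. In male MEFs the same difference was -0.13 (SE 0.11), and -0.07 without male KO replicate 3. Zrsr1 and Commd1 share 203 exon bases on opposite strands, and the log2 fold change of Commd1 was 0.08 in female and 0.04 in male MEFs. The value in male MEFs was -0.01 without male KO replicate 1. Commd1 also shares 2449 exon bases (29.2% of its own) with B3gnt2 on the same strand. Counts of Zrsr1 and of Commd1 were not whole in all 12 libraries, so reads may be split between these genes. For Meg3 the log2 fold change in female MEFs was -0.20 (SE 0.08, adjusted p = 0.633 by edgeR), in male MEFs it was -0.18 (SE 0.08, adjusted p = 1), and for Ndn in female MEFs it was -0.22 (SE 0.09, adjusted p = 0.635). These values in female MEFs moved with single libraries, to -0.09 for Meg3 without female wild-type replicate 1 and to -0.13 for Ndn and -0.25 for Zrsr1 without female KO replicate 2.

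In male MEFs, the values nearest to a change were those of Dio3 and Igf2, followed by Meg3. The log2 fold change of Dio3 was 1.06 (SE 0.34), with an adjusted p of 1 by edgeR, and rested on 10 to 23 counts in wild-type and 26 to 41 counts in KO libraries. For Igf2 it was 0.19 (SE 0.09, adjusted p = 1). The effect of the KO in female MEFs minus that in male MEFs was -1.12 (SE 0.45) for Dio3, -0.77 (SE 0.31) for Mest and -0.30 (SE 0.12) for Igf2, none of them past the threshold (adjusted p of 1.00 for each by edgeR's interaction contrast). The value of Mest was -0.45 without female wild-type replicate 3.

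Libraries of KO and wild type did not overlap for 5 of 39 members in female MEFs (12.8%, background 19.2%), where Peg12 was higher and Meg3, Ube3a, Zrsr1 and Airn were lower in KO. They did not overlap for 5 of 39 members in male MEFs (12.8%, background 5.3%), where Phlda2, Mcts2, Mest and Dio3 were higher and Zrsr1 was lower.

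**Figure D2:**
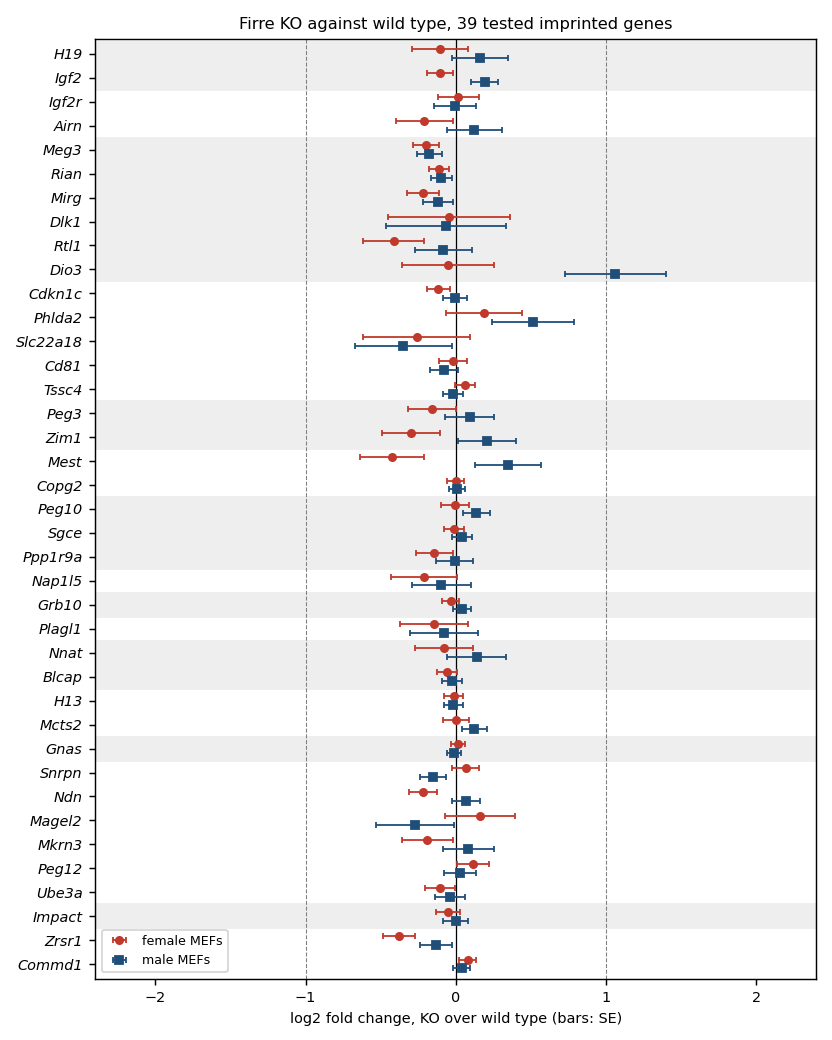
Log2 fold change of KO over wild type (x axis, bars are SE) for the 39 tested members in female (circles) and male (squares) MEFs, with dashed lines at an absolute value of 1. Most members lie close to 0, the value of Dio3 in male MEFs is the farthest from it at 1.06, and no member was called.

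Female and male MEFs, in contrast, differed in several imprinted genes, in directions that varied by gene. In wild-type MEFs 7 of 39 members were called (17.9%, background 4.54%), of which 6 were higher in female MEFs (background 2.98%) and 1 was lower (background 1.55%). In KO MEFs, which share no library with the former, 7 of 39 members were called (17.9%, background 3.89%), 3 higher (background 2.31%) and 4 lower (background 1.58%). Cdkn1c, Mest, Magel2 and Meg3 were called in both, which is 57.1% of the members called in each, while the 402 genes of the whole table called in both were 57.6% of those called in wild type and 67.1% of those in KO. At an adjusted p under 0.05 with no fold limit, 19 members were called in wild-type MEFs (background 38.7%) and 18 in KO MEFs (background 38.7%), which is 48.7% and 46.2% of 39. Of these, 16 were called in both (84.2% and 88.9%), all in the same direction, as were 4644 of the 4645 genes of the whole table called in both (78.0% and 78.1%). Without female KO replicate 1 the count in KO MEFs was 4 instead of 7, and with replicate 3 of both male groups left out the counts were 7 in wild type and 5 in KO. Markers of several other cell types moved with sex too, and those called were all higher in female MEFs. They were 8 of 10 tested macrophage markers in each genotype, 4 of 7 epithelial markers in wild type and 1 in KO, 3 of 9 skeletal muscle markers in wild type and 5 in KO, 2 of 6 neural markers in wild type and 3 in KO, and 1 of 6 endothelial markers in wild type and 0 in KO. Of 7 cartilage markers, 0 were called in either genotype. Of 12 fibroblast markers, 1 was called higher and 1 lower in female wild-type MEFs, and 0 were called in KO. The median log2 fold change of the muscle markers was 2.88 in wild type and 3.26 in KO, although their summed CPM overlapped between the sexes. Their part in these differences was not tested.

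**Figure D3:**
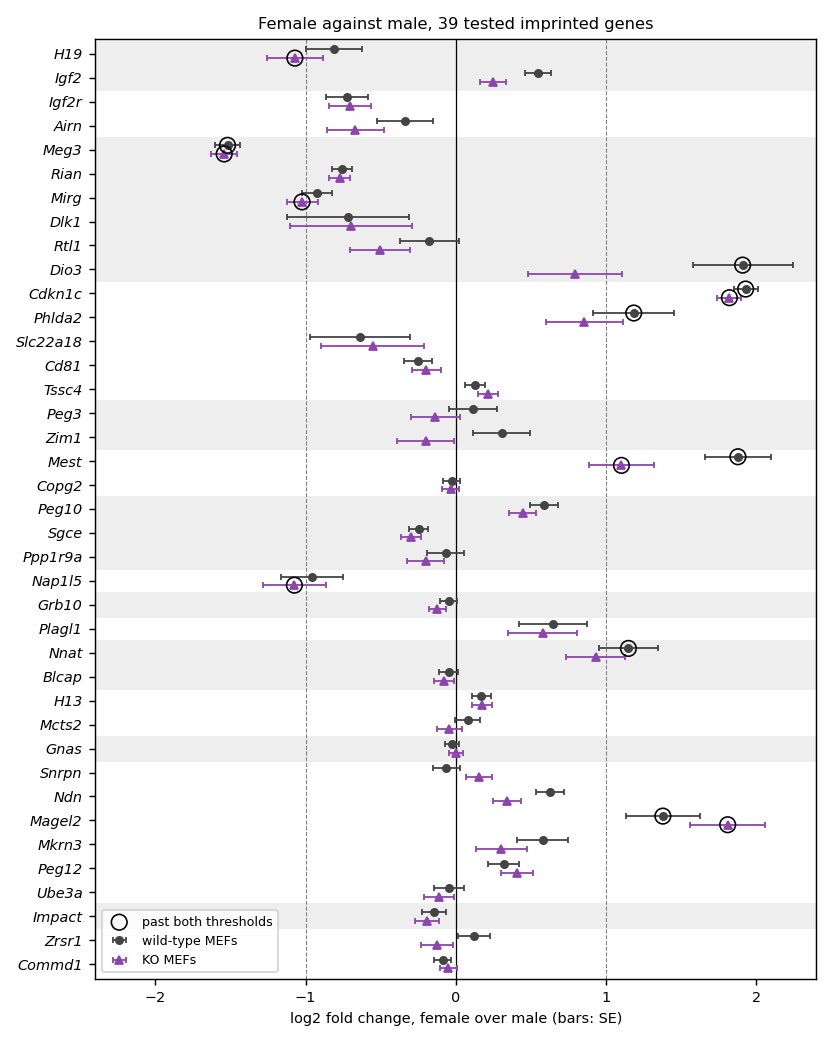
Log2 fold change of female over male (x axis, bars are SE) for the 39 tested members in wild-type (circles) and KO (triangles) MEFs, with open rings around called values. Cdkn1c and Mest lie to the right in both genotypes, and Meg3 lies to the left.

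Cdkn1c was 3.81-fold higher in female than in male wild-type MEFs (log2 fold change 1.93, SE 0.08, adjusted p = 1.49e-07 by edgeR) and 3.53-fold higher in KO MEFs (1.82, SE 0.08, adjusted p = 2.35e-07). The log2 fold change of Phlda2 was 1.18 (SE 0.27, adjusted p = 0.00551) in wild-type and 0.86 (SE 0.26, adjusted p = 0.0223) in KO MEFs, and the call in wild-type MEFs was lost in 8 of 15 alternative settings. In KO MEFs its adjusted p was 0.109 without female KO replicate 1 and 0.0808 without male KO replicate 2. H19 was lower in female MEFs, by -1.07 (SE 0.19, adjusted p = 0.00138) in KO, where it was called, and by -0.81 (SE 0.19, adjusted p = 0.00627) in wild type, under the fold limit. Without female KO replicate 1 the value of H19 in KO was -0.99 and not called, and without male WT replicate 3 its value in wild type was -1.004 and called. Its domain partner Igf2 was higher in female MEFs, by 0.55 (SE 0.09) and 0.25 (SE 0.09) on the log2 scale, with adjusted p of 0.000785 and 0.0421 and under the fold limit in both genotypes. The value of Igf2 in KO MEFs was not past an adjusted p of 0.05 in 8 of the alternative settings run (adjusted p up to 0.164, without female KO replicate 3). Igf2r was lower by -0.72 (SE 0.14) and -0.70 (SE 0.14), with adjusted p of 0.00221 and 0.00264 and likewise under the fold limit.

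The maternally expressed RNAs of the Dlk1-Dio3 domain were lower in female MEFs. Meg3 was 2.87-fold lower in wild-type MEFs (log2 fold change -1.52, SE 0.09, adjusted p = 2.16e-06 by edgeR) and 2.91-fold lower in KO MEFs (-1.54, SE 0.09, adjusted p = 2.25e-06). Mirg was called in KO MEFs at -1.02 (SE 0.10, adjusted p = 5.16e-05) and stood at -0.92 (SE 0.10) in wild type. The call was lost on the fold limit without female KO replicate 2 (-0.98), without male KO replicate 3 (-0.99) and without both male replicate 3 libraries (-0.99). Rian was at -0.76 (SE 0.07) and -0.77 (SE 0.07), with adjusted p of 3.34e-05 and 2.85e-05, so that all 3 RNAs were past an adjusted p of 0.05 in both genotypes. Of the paternally expressed genes, Dio3 was called in wild-type MEFs at 1.91 (SE 0.33, adjusted p = 0.00129), while its value in KO MEFs was 0.79 (SE 0.31, adjusted p = 0.0649). Over the alternative settings, by edgeR or DESeq2, the adjusted p of Dio3 in KO MEFs ran from 0.0448 to 0.201. It was 0.05 or more in 10 of 15. The log2 fold change of Dlk1 was -0.72 (SE 0.40) and -0.70 (SE 0.41) and did not pass (adjusted p = 0.186 and 0.197). Without male replicate 3 of the genotype compared it was -0.25 and -0.11. Meg3 shares 1228 exon bases with Gm17639 on the opposite strand.

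Among the other paternally expressed genes, Mest was 3.67-fold higher in female wild-type MEFs (log2 fold change 1.88, SE 0.22, adjusted p = 0.000134 by edgeR) and 2.15-fold higher in KO MEFs (1.10, SE 0.22, adjusted p = 0.00268). The call of Mest in KO MEFs was lost without female KO replicate 1 (0.94, adjusted p = 0.0124 by edgeR) and without male KO replicate 1 (1.07, adjusted p = 0.0122). The partner on the opposite strand, Copg2, was at -0.03 and -0.04. Magel2 was higher by 1.38 (SE 0.25, adjusted p = 0.00148) and 1.81 (SE 0.25, adjusted p = 0.000344). Nnat was called in wild-type MEFs at 1.15 (SE 0.20, adjusted p = 0.00115) and was at 0.93 (SE 0.20, adjusted p = 0.00372) in KO MEFs, under the fold limit. Nap1l5 was lower, at -1.07 (SE 0.21, adjusted p = 0.00261) in KO MEFs, where it was called, and at -0.96 (SE 0.21, adjusted p = 0.00445) in wild type. The call of Nap1l5 was lost without female KO replicate 1 (-0.97), without male KO replicate 3 (-0.98) and without both male replicate 3 libraries (-0.98). Peg10 and Sgce, which flank the 101-base interval printed above, differed in opposite directions, with Peg10 at 0.59 (SE 0.09) and 0.44 (SE 0.09) and Sgce at -0.25 (SE 0.07) and -0.30 (SE 0.07), all 4 past an adjusted p of 0.05, except that Sgce in wild type was at 0.0552 without female WT replicate 3.

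Counted by the parental copy usually expressed, at an adjusted p under 0.05, 10 of 20 paternal members were higher and 2 lower in female wild-type MEFs, and 7 were higher and 3 lower in KO MEFs. Of 19 maternal members, 2 were higher and 5 lower in wild type, and 3 were higher and 5 lower in KO. Over all genes tested, 18.9% were higher and 19.8% lower in wild type, and 18.9% were higher and 19.7% lower in KO. These counts are a description without a test, and the median log2 fold changes were 0.22 and 0.20 for paternal and -0.05 and -0.12 for maternal members. Comparing all 6 female with all 6 male libraries, values did not overlap for 18 of 39 members (46.2%, background 32.3%), 10 of them higher and 8 lower in female MEFs. Within wild type the groups did not overlap for 27 of 39 members (background 51.9%) and within KO for 21 of 39 (background 50.2%).

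Genes of 1 domain were compared over the libraries of each sex. For 29 pairs of expressed members of 1 domain, log2(CPM + 1) was correlated over 6 libraries. The sexes were kept apart because they form separate clusters. Positive correlations were found for 15 of 29 pairs in female MEFs (51.7%, median r = 0.0921) and 18 of 29 in male MEFs (62.1%, median r = 0.207). Over 499 pairs of members of different domains the shares were 60.7% and 52.5%. An r above 0.8 was seen in 6 same-domain pairs in female MEFs (20.7%, compared with 5.21% of other pairs) and in 3 in male MEFs (10.3%, compared with 7.21%). Of the 58 tests, none had an adjusted p under 0.05, and the smallest exact permutation p, 0.00139, which is the smallest that 6 libraries can give, was adjusted to 0.0806. A single pair could therefore not reach an adjusted p under 0.05 on its own, but only together with other pairs at or near the smallest p. The absence of calls thus says little about any 1 pair.

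The Dlk1-Dio3 RNAs and the pair of Peg3 and Zim1 gave the highest of these values. Peg3 and Zim1 had r = 0.914 in female MEFs (exact permutation p = 0.0278, adjusted p = 0.248, rho = 0.886 with exact p = 0.0333, r = 0.990 without the 2 farthest). In male MEFs their r was 0.738 (exact permutation p = 0.0764, adjusted p = 0.311, rho = 0.714 with exact p = 0.136, r = 0.572 without the 2 farthest). Rian and Mirg had r = 0.892 in female MEFs (exact permutation p = 0.00139, adjusted p = 0.0806) and rho = 1.00 (exact p = 0.00278, adjusted p = 0.0806), with r = 0.882 without the 2 libraries farthest from the median of Rian. Meg3 and Rian had r = 0.909 in male MEFs (exact permutation p = 0.0250, adjusted p = 0.248) and rho = 1.00 (exact p = 0.00278), with r = 0.936 without the 2 farthest. In female MEFs the same pair had r = 0.951 (exact permutation p = 0.0167, adjusted p = 0.242) and rho = 0.657 (exact p = 0.175), but r = -0.0653 without the 2 farthest, so the relation rests on those libraries. Meg3 and Mirg in female MEFs had r = 0.804 (exact permutation p = 0.0111, adjusted p = 0.215) and rho = 0.657 (exact p = 0.175), with r = 0.406 without the 2 farthest. Within genotype, as deviations from the group means, Meg3 and Rian had r = 0.948 in female and 0.853 in male MEFs.

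**Figure D4:**
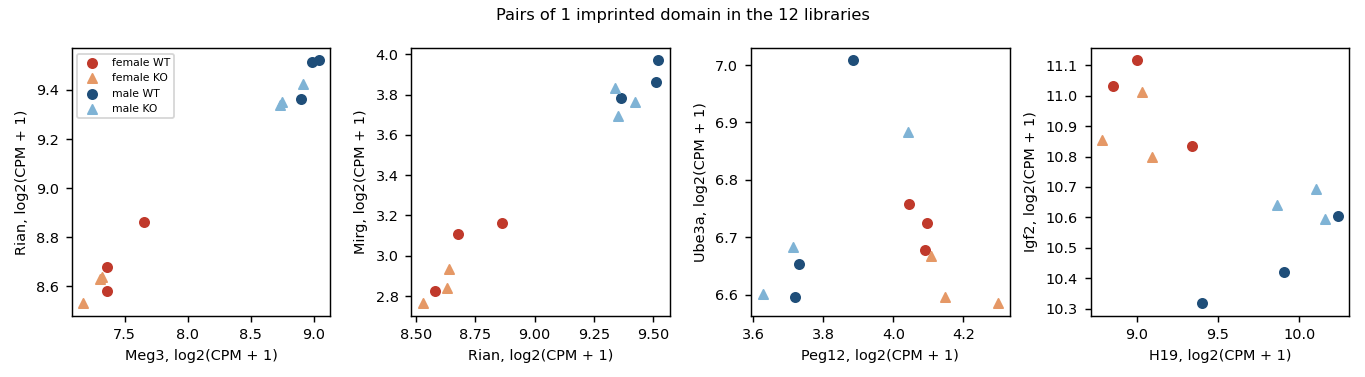
Log2(CPM + 1) of 4 pairs of members in the 12 libraries, coloured by group. Meg3, Rian and Mirg are higher in male than in female libraries, Peg12 and Ube3a slope down in female and up in male libraries, and female libraries lie low for H19 and high for Igf2.

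Of the other pairs, Peg12, a FRAT family gene, and Ube3a had r = -0.832 in female MEFs (exact permutation p = 0.00972, adjusted p = 0.215, rho = -0.943 with exact p = 0.0167, r = -0.895 without the 2 farthest). In male MEFs their r was 0.817 (exact permutation p = 0.0458, adjusted p = 0.248, rho = 0.657 with exact p = 0.175, r = 0.488 without the 2 farthest), and both genes were highest in male replicate 3 of each genotype. Cd81 and Tssc4 had r = 0.850 in male MEFs (exact permutation p = 0.0458, adjusted p = 0.248, rho = 0.714 with exact p = 0.136) but 0.128 without the 2 farthest libraries, on which the relation rests, and r = 0.641 in female MEFs (exact permutation p = 0.164, adjusted p = 0.413, rho = 0.714 with exact p = 0.136, r = 0.155 without the 2 farthest). H19 and Igf2 had r = -0.335 in female MEFs (exact permutation p = 0.514, adjusted p = 0.828, rho = -0.543 with exact p = 0.297, r = -0.565 without the 2 farthest) and r = 0.786 in male MEFs (exact permutation p = 0.0583, adjusted p = 0.260, rho = 0.371 with exact p = 0.497, r = 0.398 without the 2 farthest). Peg10 and Sgce had r = -0.572 (exact permutation p = 0.199, adjusted p = 0.449, rho = -0.600 with exact p = 0.242, r = 0.288 without the 2 farthest) and r = -0.136 (exact permutation p = 0.826, adjusted p = 0.904, rho = 0.257 with exact p = 0.658, r = 0.542 without the 2 farthest). Whether any pair differs between the sexes was not tested.

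Imprinted genes outside the set and the factors that keep imprints were given from lists. Of 37 other imprinted genes, 34 were in the table, 25 were tested and 0 were called between KO and wild type or between the sexes by edgeR, nor were any by DESeq2. At an unadjusted p under 0.05 by edgeR, 2 of the 25 passed for the KO in female, 1 in male MEFs, 11 between the sexes in wild type and 12 in KO, and by DESeq2 these counts were 2, 1, 9 and 11. The edgeR counts are 8% (7.55% of all genes), 4% (2.06%), 44% (47.8%) and 48% (47.9%) of the list, close to the shares over all genes. At an adjusted p under 0.05, 2 were higher and 6 lower in female wild-type MEFs, and 3 higher and 7 lower in KO MEFs, beside the 38.7% of all genes called in each.

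The list of factors that set, keep or read imprints held 22 genes, of which 19 were tested and 0 were called in the same comparisons by edgeR or DESeq2. At an unadjusted p under 0.05 by edgeR, 4 of the 19 passed for the KO in female, 0 in male MEFs and 9 between the sexes in each genotype, and by DESeq2 the counts were 3, 0, 8 and 9. The edgeR counts are 21.1% (7.55% of all genes), 0% (2.06%), 47.4% (47.8%) and 47.4% (47.9%) of the list. At an adjusted p under 0.05, 1 was higher and 7 were lower in female wild-type MEFs, and 1 was higher and 8 were lower in KO MEFs. The share past an adjusted p of 0.05 was thus 42.1% and 47.4% of these factors, beside the 38.7% of all genes given above.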

How the data were processed

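The RNA-seq libraries of the MEFs were analysed. The authors filtered and mapped reads with Bowtie 2 and deposited expected counts per gene from RSEM 1.2.29, with mm9 named in the submitters' processing notes. No scaling had been applied, and 14.7% to 16.8% of the values in a library are not whole. The kit and the sources used here do not state that strand was used, so reads of genes that overlap on opposite strands cannot be told apart. The other samples of the series, among them Hi-C, were not used here. All 37310 identifiers matched the NCBIM37 (mm9) annotation, the source of coordinates, exon lengths and TPM.

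After rounding, the quasi-likelihood test of edgeR 4.0.16 was run in R 4.3.3 with TMM factors, the filterByExpr filter, 1 mean per sex and genotype over all 12 libraries and Benjamini-Hochberg adjustment over 15387 genes. The thresholds were those of the study's methods. CPM used TMM-scaled library sizes. Depth was 42986516 to 65454660 counts per library, which limits the precision of members below 1 CPM. Pairs were tested with exact two-sided permutation tests (SciPy 1.17.1), adjusted over 58 tests. Figures used matplotlib 3.10.9. The edgeR and permutation procedures were tested on simulated data.

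Values per library were given for the 12 members with the highest mean CPM, the 4 highest per exon length outside these, and every called member. Fold changes were given for called members and for the 3 members of smallest p in each sex for the KO, and values of some other members were added after they had been seen. Pairs named were the 3 of smallest p per sex, H19 with Igf2, Meg3 with Rian and Peg10 with Sgce. Peg3 with Zim1 was added after its values had been seen. The members and lists were chosen with earlier results of these data known. Marker lists for muscle, neural cells, endothelium and cartilage were also summed. Their ranges in female and male libraries were 91.0 to 159 and 81.7 to 147 CPM for muscle, 624 to 842 and 470.3 to 643 for neural cells, 25.8 to 37.3 and 17.4 to 23.9 for endothelium, and 506 to 847 and 319 to 909.6 for cartilage.

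Alternatives were DESeq2 1.42.0, other size factors, other filters on low counts, fits of just the 6 libraries of a comparison, no fold limit with an adjusted p under 0.05, a replicate block, each library left out in turn, and, for levels and pairs, other minimum levels, pseudocounts, scaling and Spearman correlation. Leaving out replicate 3 of both male groups was added after the data were seen.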

Additional observations from a re-analysis of the deposited data

How the results depend on the processing

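No member was called between KO and wild type under any alternative run. Of the fold changes printed in the text, 4 changed sign under an alternative, none of them called. With each replicate left out, that of Phlda2 for the KO in female MEFs ran from -0.0835 (without female KO replicate 1) to 0.3401, that of Commd1 for the KO in male MEFs from -0.0117 (without male KO replicate 1) to 0.0982, and that of Copg2 between the sexes in KO MEFs from -0.0859 to 0.001 (without male KO replicate 1). Slc22a18 for the KO in male MEFs was at 0.0037 without both male replicate 3 libraries. For female against male MEFs, the members called at an adjusted p under 0.05 without a fold limit were 19 in wild type and 18 in KO, with both limits relaxed together. With each replicate left out in turn, the counts were 6 to 7 in wild type and 4 to 8 in KO. The lowest of these, 4, came without female KO replicate 1, which removed the calls of H19, Nap1l5 and Mest. The call of Mest in KO was also lost without male KO replicate 1, that of Mirg without female KO replicate 2 or male KO replicate 3 and that of Nap1l5 without male KO replicate 3. H19 in wild type was called without male WT replicate 3, Nap1l5 in wild type without male WT replicate 1 and Nnat in KO without female KO replicate 2 or male KO replicate 2. The call of Phlda2 in wild type was lost in the most settings, 8 of 15. The sex difference of Mest in the effect of the KO was -0.45 without female WT replicate 3 in place of -0.77. With replicate 3 of both male groups left out, an alternative chosen after seeing the data, 7 members were called in wild type, H19 among them and Phlda2 not, and 5 in KO, and the cause was not tested.

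Same replicate numbers did not mark pairs over all groups: deviations from group means correlated at -0.164 to 0.333 between libraries of the same number and at -0.288 to 0.181 between others. In male MEFs the wild-type and KO libraries of the same number correlated at 0.097, 0.216 and 0.333, the last being replicate 3, and in female MEFs at -0.164, -0.118 and -0.152. With the replicate block, 6 members were called between the sexes in wild type, 7 in KO and 0 for the KO, with Phlda2 lost. Over all genes, the block gave 639 and 508 calls between the sexes in place of 698 and 599, and 0 in place of 1 for the KO within each sex.

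Counts over all genes also moved. For the sexes in KO MEFs they fell from 599 to 370.0 with only the 6 libraries compared, to 376 without female KO replicate 1, to 329 without male KO replicate 1 and to 342 without male KO replicate 2. For wild type they fell from 698 to 432 without male WT replicate 1. For the KO, DESeq2 called 4 genes in female and 2 in male MEFs, 3 in the average and 1 for the sex difference, in place of 1, 1, 1 and 0, and at least 10 counts in every library, which removed Firre, gave 0.

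The number of expressed members, 33, was 39 at a minimum of 0.5 CPM and 35 at 1 TPM. Positive pairs ranged from 15 to 17 in female and from 16 to 20 in male MEFs over all alternatives run. Phlda2, Dio3, Magel2 and Nap1l5 rest on under 100 counts in every library, so that counting error weighs on their values.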
